A study of Sus scrofa with 22 samples.

Results

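The comparison set cloned pig fetuses labelled abnormal against cloned fetuses labelled normal at day 35 of development. Its members were chosen by sample title: 2 abnormal and 3 normal libraries, 5 of the 22 libraries of the series, each made from total RNA of body tissue and labelled male. The clones came from somatic cell nuclear transfer, in which the nucleus of a body cell replaces that of an oocyte, and the title of the series asks how XIST, the RNA that silences an X chromosome, bears on it. Other groups give context only: 2 libraries of naturally fertilized (NF) fetuses at day 35, labelled male, and at day 30 2 abnormal and 3 normal clones, labelled male, with 2 NF libraries, 1 labelled male and 1 female. The labels name neither the donor cells, nor the defect that made a fetus abnormal, nor the part of the body sampled, and they do not say that replicates were separate animals, so p-values measure only the spread between these libraries.

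A fetus at this stage of pig gestation is laying down skeletal muscle, peripheral nerves, vessels and a kidney primordium, and bulk RNA of body tissue mixes the transcripts of all of them. Cells that meet amino acid shortage, misfolded protein or heme loss phosphorylate the initiation factor eIF2, which slows translation in general but favours ATF4. ATF4 then switches on amino acid synthesis, amino acid import, tRNA charging and, under lasting stress, pro-death regulators. HOX genes are laid out along their chromosomal clusters in the order in which they are expressed from head to tail.

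The 2 abnormal libraries differed in depth and in what they resembled. The deposited expected counts summed to 4.28 M in abnormal replicate 1 and 0.59 M in replicate 2, against 8.45, 7.04 and 6.06 M in the normal libraries. A count of 3 therefore corresponded to 1.15 and 8.09 CPM (counts scaled to a common library total) in the abnormal libraries and to 0.504 to 0.685 CPM in the normal ones, a floor that covers counting error only. Over 3953 well expressed genes, Spearman's correlation of the log2 CPM values was 0.536 between the 2 abnormal libraries, a description with no test. Replicate 1 was most like the day 30 abnormal libraries (0.834 and 0.842), and replicate 2 most like a day 30 NF library (0.833) and the day 35 NF libraries (0.789 and 0.799). The Y-linked gene EIF1AY was at 0 in both abnormal libraries and at 31.1, 20.5 and 28.3 CPM in the normal libraries. The abnormal libraries thus went against their male label for this gene, which did not pass the edgeR test described below (adjusted p = 0.0704). Of 7 Y-linked genes tested, LOC100624149, LOC100624590 and LOC100625207 were likewise at or under 2.7 CPM in both abnormal libraries, where normal libraries held at least 71.1 CPM. LOC100624648 was present throughout, at 523 and 272 CPM against 265, 289 and 304 CPM. LOC110255212, at 6.52 and 21.6 CPM against 0.841, 3.75 and 20.8 CPM, was not low in the abnormal libraries. LOC100624329 was at 1.15 and 0 CPM against 7.9, 21.3 and 0 CPM. The genes and lists that matter most are therefore given for each abnormal library.

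In a model of all 14 fetus libraries, edgeR's quasi-likelihood test with Benjamini-Hochberg adjustment called 2300 of 9911 genes at an adjusted p under 0.05, which is 23.2% of the genes tested. Of these 1085 were higher in abnormal fetuses (10.9% of genes tested) and 1215 lower (12.3%). Both abnormal libraries lay above all normal libraries in 916 of the genes called higher (9.24% of genes tested) and below them in all 1215 called lower. With each abnormal library taken alone against the normal libraries, 409 of these genes were called higher both times (4.13% of genes tested) and 618 lower (6.24%), and genes described below as holding in each library belong to these. The 2 libraries also parted: of 10199 genes tested that way, 411 were called higher in both (4.03%) and 631 lower in both (6.19%), while 191 were called higher in replicate 1 and lower in replicate 2 (1.87%) and 239 the reverse (2.34%). A fit of the 5 libraries alone called 86 genes higher and 253 lower, and a fit of the day 35 libraries alone 309 and 593. With limma on log2(TPM + 1), 497 were higher and 2382 lower, and the median over all genes moved by -0.32. Leaving out abnormal replicate 2 gave 3608 calls and leaving out normal replicate 1 gave 1424.

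**Figure D1:**
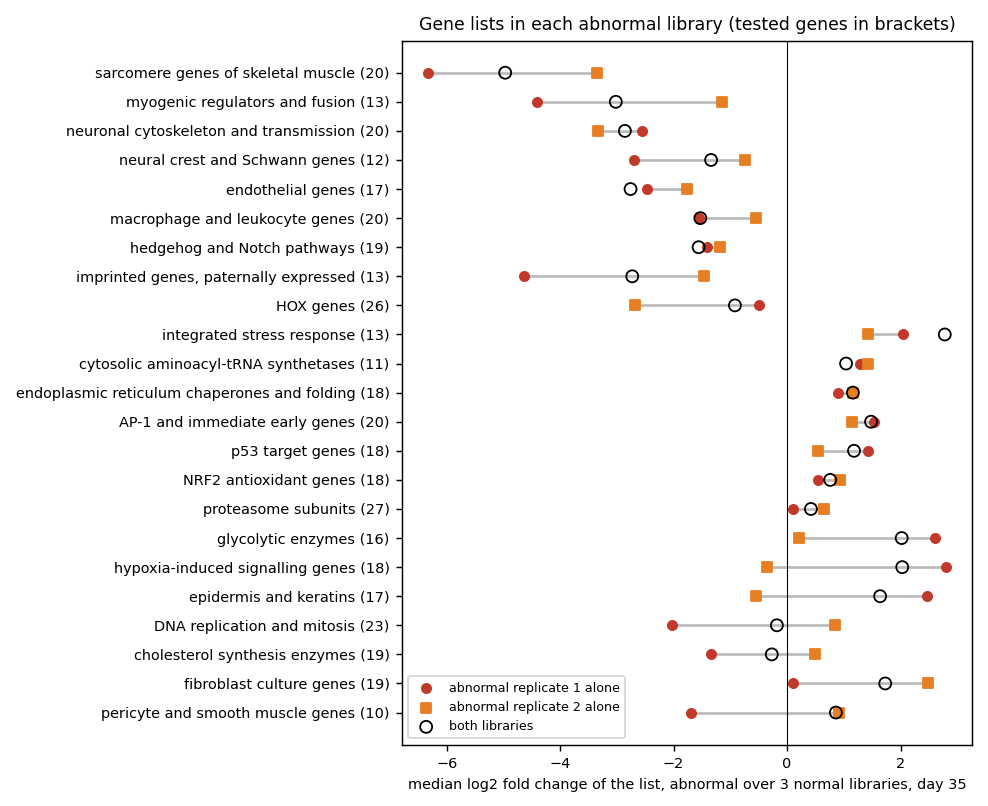
Median log2 fold change (abnormal over the 3 normal libraries, day 35; x axis) of 23 gene lists, with abnormal replicate 1 alone (red circles), replicate 2 alone (orange squares) and both (open circles); genes with no count are set at the floor of 3 counts. Sarcomere genes lie at -6.33 and -3.35 and tRNA synthetases at 1.29 and 1.42, while hypoxia genes lie at 2.81 and -0.35 and mitotic genes at -2.03 and 0.85.

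Skeletal muscle genes were lower in the abnormal fetuses. Of 20 sarcomere genes tested, 17 fell, none rose, and 16 of the 17 held in each abnormal library, where 12.3% of all genes fell. Across the list the median was -4.97 on the log2 scale, where that of all genes was 0.00. TNNT3, fast skeletal troponin T (chromosome 2, 1297826 to 1316865, build Sscrofa11.1), had no count in either abnormal library and 112, 57.8 and 69.9 CPM in the normal libraries, at least 79.3-fold lower, or 9.89-fold from replicate 2 alone (adjusted p = 0.000637), though only 1 of its 42 annotated transcripts was matched. Bounds of this kind set the normal mean against 3 counts over both abnormal libraries, 1.01 CPM. MYBPC1, a myosin-binding protein of slow fibres, was at 0.767 and 0 CPM against 217, 129 and 121 CPM. ACTA1, skeletal alpha-actin, was at 2.69 and 8.09 CPM in the abnormal and 447, 155 and 239 CPM in the normal libraries (log2 fold change -6.28 ± 0.79 SE, adjusted p = 0.000588). MYL1, a fast myosin light chain, was at 1.15 and 13.5 CPM against 275, 180 and 200 CPM, and CKM, muscle creatine kinase, at 0.384 and 0 CPM against 40.2, 14.8 and 15.5 CPM. No abnormal value reached the lowest normal value in any of these genes, which was a condition for naming list members by size of change. Of the 20 sarcomere genes tested, 18 had both abnormal libraries below all normal ones, as had 25.9% of all genes. In bulk tissue, fewer cells of a type and less RNA per cell cannot be told apart.

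The regulators that make muscle cells went the same way with more difference between the libraries. Of 13 tested, 8 fell and none rose. MYOG, which commits myoblasts to fuse, was at 3.45 and 16.2 CPM against 110, 93.2 and 104 CPM (log2 fold change -4.12 ± 0.53, adjusted p = 0.000639). MYMK, the fusion protein myomaker, was at 1.92 and 32.4 CPM against 127, 84.3 and 99.1 CPM (-3.59 ± 0.77, adjusted p = 0.00801). MYF6 had no count in the abnormal libraries and 11.6, 8.88 and 7.76 CPM in the normal ones, at least 9.34-fold lower, or 1.16-fold from replicate 2 alone (adjusted p = 0.0024). MYF5, which acts earliest in the myogenic series, was at 0.384 and 43.2 CPM against 15.3, 15.2 and 17.6 CPM, so the libraries lay on opposite sides, and it did not pass the test with both (adjusted p = 0.773). SMPX, a small muscle protein, and APOBEC2, a muscle-enriched deaminase relative, had no count in either abnormal library and lay at 17.8 to 36 and 27 to 51.6 CPM in the normal libraries. Sarcomere genes were low in day 35 NF fetuses too: the list summed to 97.1 and 1900 CPM in the abnormal, 8920, 5690 and 6370 CPM in the normal and 856 and 848 CPM in the NF libraries.

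Genes of the neuronal cytoskeleton and of transmission, here the neuronal list, showed the same separation in both libraries. All 20 tested members of the neuronal list lay below every normal library in both abnormal libraries, which 25.9% of all genes did, and 17 passed the test, 16 of them in each library alone. NEFL, the light neurofilament chain, was at 27.2 and 27 CPM in the abnormal and 1260, 848 and 761 CPM in the normal libraries (log2 fold change -5.13 ± 0.57, adjusted p = 0.000374). L1CAM, an axonal adhesion molecule, was at 1.53 and 0 CPM against 220, 169 and 88.4 CPM (-6.89 ± 1.42, adjusted p = 0.00788). INA, an intermediate filament of neurons, was at 15 and 8.09 CPM against 673, 401 and 389 CPM. SLC17A6, which loads glutamate into synaptic vesicles, was at 2.3 and 0 CPM against 42, 31.8 and 22.6 CPM (-4.08, adjusted p = 0.00719). GAD1, which makes the transmitter GABA, was at 0.384 and 0 CPM against 46.7, 36.9 and 26.9 CPM. Synaptophysin (SYP) and the motor neuron and ganglion factor ISL1 fell by 4.52 and 3.58 on the log2 scale (adjusted p = 0.000424 and 0.000817). The list summed to 630 and 537 CPM in the abnormal libraries, 6990, 4500 and 4150 CPM in the normal and 727 and 659 CPM in the NF libraries, so here as well the normal clones stood above both other groups. Other neural lists fell less: of 17 neural progenitor and neurogenic genes 4 fell and 1 rose, and of 16 axon guidance genes none fell and 1 rose. Of all genes 12.3% fell and 10.9% rose. The progenitor list summed to 5230 and 15200 CPM against 11200, 11400 and 10500 CPM, so the abnormal libraries lay on opposite sides.

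Among 12 neural crest and Schwann cell genes, 6 fell, all of them in each library alone. SOX10, the regulator of the crest and Schwann lineage, was at 0 in both and at 27.4, 30.6 and 31.3 CPM in the normal libraries, at least 29.5-fold lower, or 3.68-fold from replicate 2 alone (adjusted p = 0.00071). MBP, a myelin protein, was also at 0 in both abnormal libraries (at least 16.7-fold lower, or 2.08-fold from replicate 2 alone). CDH19, a Schwann precursor cadherin, was at 0.384 and 0 CPM against 13.8, 15.4 and 8.68 CPM. The endothelin receptor EDNRB was at 11.1 and 5.4 CPM against 90.1, 86.1 and 60 CPM (log2 fold change -3 ± 0.58, adjusted p = 0.00489). Only EGR2 of the list rose (2 on the log2 scale, adjusted p = 0.0185), with replicate 2 alone not called (adjusted p = 0.828).

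**Figure D2:**
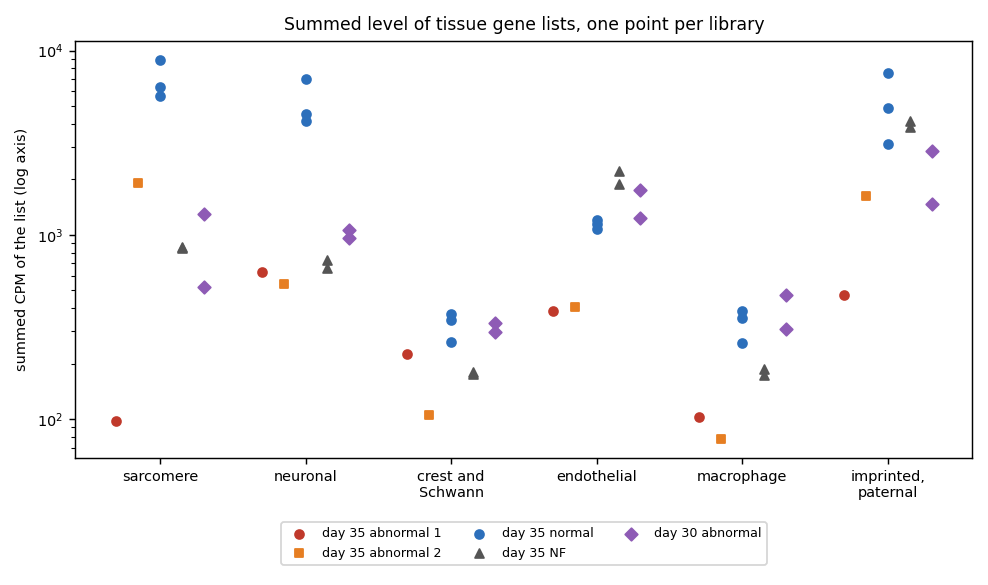
Summed CPM (log y axis) of 6 gene lists, with 1 point per library of day 35 abnormal replicate 1 (red), replicate 2 (orange), day 35 normal (blue), day 35 NF (grey) and day 30 abnormal (purple). Both day 35 abnormal libraries lie below all day 35 normal libraries in each list, and for endothelial genes they hold 384 and 407 CPM where every other library shown holds at least 1070 CPM.

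Vessel genes were lower in the abnormal fetuses, while in sum the NF libraries held more of them than any clone library at day 35. Of 17 endothelial genes tested, 11 fell and none rose, and 5 held in each library. VWF, the clotting factor made by endothelium (chromosome 5, 64516627 to 64655938), was at 3.07 and 2.7 CPM in the abnormal and 78.2, 79 and 87 CPM in the normal libraries (log2 fold change -4.74 ± 0.30, adjusted p = 2.09e-05). CLDN5, the endothelial tight junction protein, was at 6.52 and 0 CPM against 145, 129 and 118 CPM (-4.61 ± 0.65, adjusted p = 0.00102). PECAM1, an adhesion molecule of vessel walls, was at 29.2 and 13.5 CPM against 158, 179 and 162 CPM (-2.76 ± 0.57, adjusted p = 0.00662). In NF fetuses PECAM1 was at 175 and 203 CPM but VWF at 7.35 and 6.29 CPM. TEK, the angiopoietin receptor, was at 6.52 and 0 CPM against 20, 24.5 and 28.1 CPM. LYVE1, of lymphatic endothelium and some macrophages, had no count in either abnormal library and 26.4, 39.1 and 16.9 CPM in the normal libraries, at least 27.3-fold lower, or 3.4-fold from replicate 2 alone (adjusted p = 0.00865, and 0.0808 with replicate 2 alone). GJA4, an arterial gap junction protein, and PTPRB, the endothelial phosphatase that restrains TEK, had no count in either abnormal library, at least 34.7-fold and 26.4-fold lower, or 4.33-fold and 3.29-fold from replicate 2 alone, with 1 of 4 transcripts of PTPRB matched. The 2 libraries differed for other vessel genes: FLT1, a receptor of VEGF that did not pass the test, was at 6.14 and 129 CPM against a normal mean of 30.1 CPM. The list summed to 384 and 407 CPM in the abnormal libraries, 1070, 1200 and 1150 CPM in the normal and 1880 and 2210 CPM in the NF libraries.

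Notch genes that act in arteries were lower as well. Of 19 hedgehog and Notch pathway genes, 9 fell and none rose. HEYL, a target of Notch in vascular smooth muscle, was at 1.15 and 0 CPM in the abnormal and 60.9, 53.3 and 49.8 CPM in the normal libraries (log2 fold change -5.75 ± 0.45, adjusted p = 4.47e-05), and NF libraries held 50.3 and 40.4 CPM. NOTCH4, the endothelial receptor, was at 0 and 2.7 CPM against 30.8, 23.1 and 30.1 CPM (-6.20 ± 0.93, adjusted p = 0.00144). DLL1, a Notch ligand of somites and neural tube, was at 13.4 and 8.09 CPM against 34.8, 38.1 and 33.8 CPM (-1.56 ± 0.30, adjusted p = 0.0048). GLI1, the readout of hedgehog signalling, was at 15 and 2.7 CPM against 38.8, 35.5 and 59.8 CPM (-1.89 ± 0.51, adjusted p = 0.0224). These 4 held in each library, and the ligands IHH, DHH and SHH, which also fell, did not hold in replicate 2 alone (adjusted p = 0.137, 0.127 and 0.0594), where 3 counts are worth 8.09 CPM.

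Macrophage genes formed another low group. Of 20 tested, 10 fell and none rose, 3 of them in each library: LAPTM5, a lysosomal protein of leukocytes, C1QB, a chain of complement C1q, and the innate receptor TLR2. LAPTM5 was at 9.59 and 2.7 CPM against 62, 79.4 and 59.6 CPM (log2 fold change -3.04 ± 0.44, adjusted p = 0.0011). C1QB was at 8.06 and 0 CPM against 64.7, 51.9 and 39.7 CPM (-3.06 ± 0.57, adjusted p = 0.00399). The list summed to 102 and 78.2 CPM in the abnormal libraries and 352, 386 and 257 CPM in the normal ones. CXCL12, the chemokine that draws CXCR4-bearing cells, was at 66.4 and 16.2 CPM against 220, 173 and 224 CPM (-2.09 ± 0.34, adjusted p = 0.00224). CXCR4, its receptor, was at 15 and 8.09 CPM against 53.5, 38.1 and 37.7 CPM (-1.71 ± 0.30, adjusted p = 0.00304). In contrast ACKR3, the receptor that scavenges CXCL12, was at 253 and 148 CPM against 41.4, 44.8 and 53.6 CPM (2.14 ± 0.25, adjusted p = 0.000425).

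Some kidney and endoderm regulators were among the genes with no count. PAX2, needed for the nephric duct, had 0 counts in both abnormal libraries and 69.9, 56.9 and 51.8 CPM in the normal libraries, at least 59.1-fold lower, or 7.35-fold from replicate 2 alone (adjusted p = 0.000791). LHX1, which acts beside it, was at 5.37 and 0 CPM against 57, 57.1 and 50.7 CPM (log2 fold change -3.67 ± 0.48, adjusted p = 0.000894). Of the 12 genes of the kidney list 5 fell and 1 rose, and the list summed to 508 CPM in replicate 1 and 159 CPM in replicate 2 against 471, 503 and 496 CPM. SIX2, which marks nephron progenitors, was at 186 and 89 CPM against a normal mean of 115 CPM (adjusted p = 0.456). Endoderm lists did not fall as a whole. Of 15 foregut, lung and gut genes 3 rose and 3 fell, and of 14 liver secretory genes 1 rose and 3 fell. Of all genes 10.9% rose and 12.3% fell. HNF4A, the hepatocyte and kidney tubule regulator, was at 0 in both against 24.7, 18.2 and 11.4 CPM, at least 18-fold lower, or 2.24-fold from replicate 2 alone (adjusted p = 0.00175). Apolipoprotein APOA1 was at 3.07 and 8.09 CPM against 205, 199 and 153 CPM (-5.55 ± 0.86, adjusted p = 0.00162). TTR, a hormone carrier of liver, choroid plexus and yolk sac, went the other way, at 10.7 and 13.5 CPM against 0 in all normal libraries, at least 62.2-fold higher (adjusted p = 0.00754). NF libraries held 0.513 and 2.27 CPM of PAX2, 0.342 and 0.524 CPM of HNF4A and 26.7 and 23.1 CPM of APOA1.

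HOX genes split by their place in the cluster, a split made after their values were seen. Of the 25 HOX genes reported here, 10 were in paralogue groups 8 to 13, which act in the posterior body, and of these 7 fell and none rose. Of the 15 in groups 1 to 7, none fell and 1 rose, HOXC5, which was at 28.4 and 2.7 CPM against 5.72, 3.75 and 4.57 CPM and lay below 0 with replicate 2 alone (-0.81 on the log2 scale). HOXC12 was at 1.15 and 0 CPM in the abnormal and 71.6, 140 and 76.9 CPM in the normal libraries (log2 fold change -6.56 ± 0.94, adjusted p = 0.0011). HOXC13 was at 2.3 and 2.7 CPM against 43.9, 67.7 and 33.3 CPM (-4.33 ± 0.69, adjusted p = 0.00196), and HOXD9 at 22.3 and 13.5 CPM against 126, 78.4 and 106 CPM (-2.39 ± 0.29, adjusted p = 0.000518). HOXD13 did not pass the test (adjusted p = 0.117), at 1.53 and 27 CPM against 34.8, 49.8 and 97 CPM. The posterior genes summed to 86 and 64.8 CPM in the abnormal and 560.4, 623.8 and 695.8 CPM in the normal libraries. The groups 1 to 7 summed to 933.4 CPM in replicate 1, within the normal range of 773.4 to 981.7 CPM, and to 78.3 CPM in replicate 2, which had no count for 10 of these 25 HOX genes, so that the split was seen in replicate 1 only. NF libraries were low in posterior HOX genes as well, with 0.171 and 0 CPM of HOXC12 and 24.5 and 26.2 CPM of HOXD9. At day 30 the same count of posterior genes, 7, fell in abnormal clones and none of groups 1 to 7 did.

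**Figure D3:**
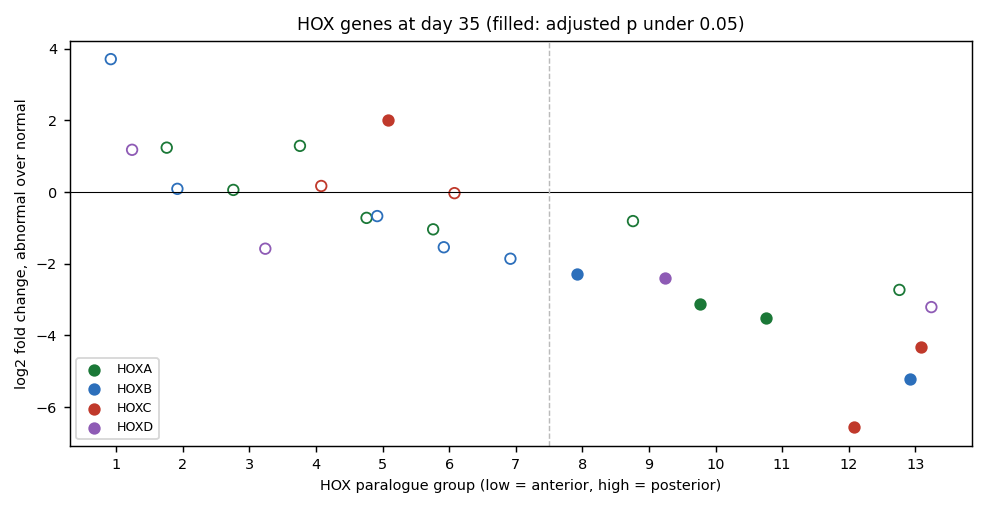
Log2 fold change (abnormal over normal, day 35; y axis) of 25 HOX genes by paralogue group (x axis, anterior to posterior) and cluster (colour); filled points passed the test and open points did not. The filled points to the right of the dashed line, groups 8 to 13, are all below 0, from -2.29 to -6.56, and the 1 filled point to its left, at 2.01, is above 0.

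Paternally expressed imprinted genes, transcribed from 1 parental copy and often growth-promoting, were also lower: 9 of 13 fell and 1 rose, with 6 holding in each library. DLK1, a Notch-related fetal growth gene, was at 0.767 and 0 CPM in the abnormal, 138, 53.5 and 107 CPM in the normal and 279 and 363 CPM in the NF libraries (log2 fold change -7.17 ± 0.94, adjusted p = 0.000724). IGF2, the fetal growth factor, was at 231 and 251 CPM against 809, 452 and 799 CPM (-1.51 ± 0.26, adjusted p = 0.00286), with 1 of its 17 annotated transcripts matched. NNAT, which is abundant in developing brain, was at 6.91 and 54 CPM against 3290, 681 and 1170 CPM (-6.35 ± 1.14, adjusted p = 0.00343). The maternally expressed IGF2R, which clears IGF2, was at 291 and 318 CPM against 123, 166 and 153 CPM (1.04 ± 0.27, adjusted p = 0.0184). For IGF2, DLK1 and IGF2R the NF libraries, at 1160 and 1360, 279 and 363, and 903 and 1000 CPM, were higher than every clone library at day 35.

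The integrated stress response was the list with the largest share of genes called higher, 84.6%, among the 50 gene lists examined. Of 13 members tested, 11 rose and none fell, and 6 held in each library: ATF4, ATF3, TRIB3, SESN2, STC2 and CTH. ATF4 itself was at 716 and 1140 CPM against 434, 383 and 435 CPM (log2 fold change 1.14 ± 0.24, adjusted p = 0.00719). TRIB3, a pseudokinase that feeds back on ATF4 (chromosome 17, 34808273 to 34819592), was at 34.5 and 24.3 CPM against 0.673, 0.592 and 0.913 CPM (5.37 ± 0.96, adjusted p = 0.00336). STC2, a glycoprotein induced by endoplasmic reticulum stress, was at 168 and 48.6 CPM against 4.54, 2.76 and 4.57 CPM (4.85 ± 0.64, adjusted p = 0.000724). SESN2, an inhibitor of the growth kinase mTORC1, was at 285 and 72.8 CPM against 15.8, 18 and 15.1 CPM (3.53 ± 0.49, adjusted p = 0.000894). CTH, which makes cysteine, was at 39.9 and 108 CPM against 10.1, 9.87 and 9.82 CPM (2.78 ± 0.37, adjusted p = 0.000772). No normal library overlapped an abnormal one in these 5 genes, which was a condition for naming list members by size of change. Of the 13 members tested, 10 had both abnormal libraries above all normal ones, as had 17.1% of all genes. The day 35 NF libraries held 1150 and 1490 CPM of ATF4 and 45.7 and 91.2 CPM of TRIB3, as high as or higher than the abnormal clones, while CTH, at 28.9 and 30.8 CPM, and STC2, at 31.1 and 37.4 CPM, lay between the normal and the abnormal libraries.

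Enzymes that charge tRNAs rose with them. Of 11 cytosolic aminoacyl-tRNA synthetases tested, 7 rose, all in each library, and none fell. GARS, for glycine (chromosome 18, 42311711 to 42352201), was at 1180 and 901 CPM against 225, 185 and 214 CPM (log2 fold change 2.32 ± 0.27, adjusted p = 0.000425). WARS, for tryptophan, was at 492 and 402 CPM against 123, 104 and 119 CPM (1.96 ± 0.24, adjusted p = 0.000508). NARS, for asparagine, was at 498 and 534 CPM against 152, 160 and 171 CPM (1.68 ± 0.19, adjusted p = 0.000359). In these 3 genes the abnormal libraries differed from each other by far less than from the normal ones. SARS and YARS rose by 1.73 and 1.57 on the log2 scale. Among the 4 not called, VARS, HARS and FARSA parted the libraries. Their log2 fold changes were -0.44, -0.26 and -1.03 with replicate 1 alone, and 1.15, 1.3 and 1.15 with replicate 2 alone.

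Carriers that bring amino acids into cells rose in 6 of 12 cases and fell in 1. SLC1A5, the glutamine carrier, was at 711 and 537 CPM against 132, 147 and 177 CPM (log2 fold change 2.05 ± 0.24, adjusted p = 0.000477). SLC38A2, a carrier of small neutral amino acids, was at 757 and 734 CPM against 164, 245 and 234 CPM (1.80 ± 0.21, adjusted p = 0.000482). SLC7A1, for cationic amino acids, was at 160 and 186 CPM against 37.8, 40.9 and 47 CPM (2.04 ± 0.40, adjusted p = 0.00556). The member that fell, SLC1A3, takes up glutamate into glia and radial glia (-2.53 ± 0.46, adjusted p = 0.0035). In the serine pathway PHGDH, its first enzyme, was at 951 and 267 CPM against 146, 141 and 150 CPM (2.09 on the log2 scale, adjusted p = 0.00899, and 0.193 with replicate 2 alone). Of 9 serine, proline and one-carbon enzymes 4 rose and none fell. PSPH, its last enzyme, was at 84 and 59.3 CPM against 9.92, 10.9 and 14.4 CPM (2.66 ± 0.41, adjusted p = 0.00159).

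**Figure D4:**
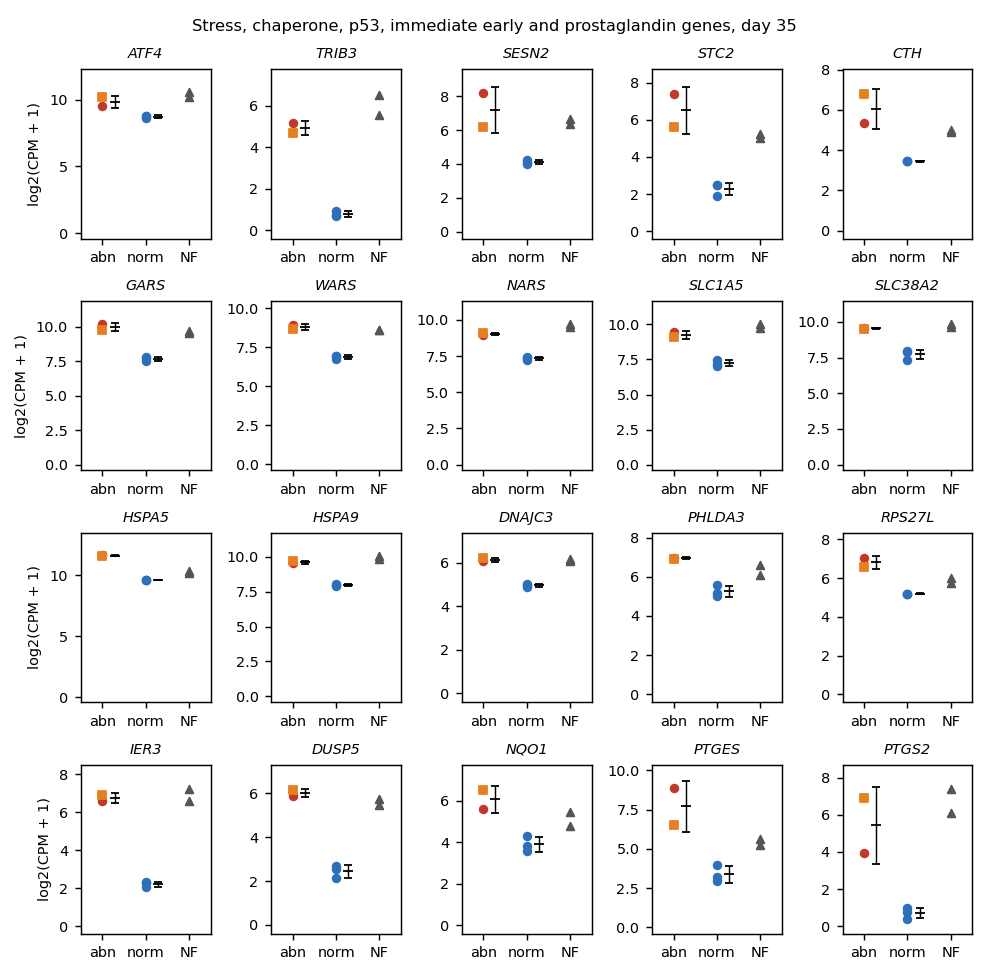
Log2(CPM + 1) (y axis) of 20 genes in day 35 abnormal replicate 1 (red circle), replicate 2 (orange square), 3 normal (blue) and 2 NF libraries (grey triangles), with mean and SD (bars) for abnormal and normal. In every panel both abnormal libraries lie above all normal libraries, which was a condition for choosing these genes. For TRIB3 they hold 34.5 and 24.3 CPM against at most 0.913 CPM. The NF libraries also lie above the normal ones.

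Chaperones of the endoplasmic reticulum, where secreted proteins fold, rose in 12 of 18 cases with none falling. HSPA5, its main HSP70 (chromosome 1, 265930044 to 265934959), was at 3150 and 3020 CPM against 797, 760 and 778 CPM (log2 fold change 1.99 ± 0.18, adjusted p = 0.000132). The NF libraries held 1180 and 1280 CPM, below both abnormal libraries. HSP90B1, its HSP90, was at 1590 and 2140 CPM in the abnormal, 879, 823 and 831 CPM in the normal and 876 and 768 CPM in the NF libraries (1.14 ± 0.18, adjusted p = 0.00179). DNAJC3, a co-chaperone that also restrains the eIF2 kinase PERK, was at 66 and 72.8 CPM against 28.8, 30.4 and 31.7 CPM (1.18 ± 0.18, adjusted p = 0.00134). CANX, the lectin chaperone calnexin, and MANF, a secreted stress factor, rose by 1.39 and 1.22 on the log2 scale. Of the mitochondrial chaperones, HSPA9 was at 739 and 820 CPM against 267, 255 and 242 CPM (1.61 ± 0.15, adjusted p = 0.00016). HSPD1 was at 360 and 874 CPM against 283, 283 and 274 CPM (1.12 ± 0.27, adjusted p = 0.0137). Proteasome subunits moved less: 6 of 27 rose and none fell, with a median of 0.42, and 26 of the 27 lay above all normal libraries in replicate 2 (35.9% of all genes did) but 12 in replicate 1 (38.9%).

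Immediate early genes and p53 targets rose in most cases. Of 20 AP-1 and immediate early genes 12 rose and none fell. IER3, a survival factor induced by stress, was at 94.8 and 121 CPM against 3.19, 3.95 and 3.88 CPM (log2 fold change 4.85 ± 0.34, adjusted p = 3.86e-05). DUSP5, a phosphatase of ERK, was at 58.3 and 70.1 CPM against 5.38, 3.36 and 4.79 CPM (3.79 ± 0.27, adjusted p = 3.86e-05). FOSL1, an AP-1 subunit, was at 7.67 and 156 CPM against at most 0.197 CPM (8.71 ± 1.39, adjusted p = 0.00196), with 120 and 263 CPM in NF libraries. The regulator MYC was at 196 and 278 CPM against 78.9, 83.5 and 69.2 CPM (1.60 on the log2 scale, adjusted p = 0.00577). Of 18 p53 targets 13 rose and none fell. PHLDA3, which restrains AKT, was at 125 and 119 CPM against 35.3, 47 and 31 CPM (1.69 on the log2 scale, adjusted p = 0.00144). MDM2, which degrades p53, was at 94.8 and 127 CPM against 42.9, 50.7 and 47.7 CPM (1.2 ± 0.17, adjusted p = 0.000873). RPS27L, a ribosomal protein relative, was at 132 and 94.4 CPM against 34.6, 35.7 and 35.8 CPM (1.71 ± 0.20, adjusted p = 0.000477). The death receptor FAS was at 5.37 and 10.8 CPM against at most 0.168 CPM (6.30 ± 1.07, adjusted p = 0.00259). CDKN1A, the p53 target that arrests the cycle, was at 0 in both abnormal libraries and in 2 normal ones and did not pass the test (adjusted p = 0.606).

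Antioxidant genes driven by NRF2 rose in 8 of 18 cases. NQO1, a quinone reductase, was at 47.6 and 91.7 CPM against 11.1, 18.6 and 13.2 CPM (log2 fold change 2.20 ± 0.42, adjusted p = 0.00489). SRXN1, which repairs peroxiredoxins, and GCLM, of glutathione synthesis, rose by 2.14 and 1.24 on the log2 scale. CYP1A1, the target of the aryl hydrocarbon receptor, was at 164 and 40.5 CPM against 1.35, 2.96 and 3.2 CPM (5.45 ± 0.63, adjusted p = 0.000425). ABCB1, a drug efflux pump, was at 77.9 and 48.6 CPM against 1.01, 1.97 and 2.97 CPM (5.04 ± 0.61, adjusted p = 0.000492), and NF libraries held 7.7 and 21.7 CPM. TFRC, which takes up iron, was at 515 and 99.8 CPM against 22.2, 28.8 and 28.5 CPM (3.60 ± 0.45, adjusted p = 0.000601). These genes were chosen by size of change across all genes or from their list, and a lack of overlap between the groups was a condition for that choice. Of the 18 NRF2 genes tested, 8 had both abnormal libraries above all normal ones, as had 17.1% of all genes.

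Of 21 chemokine, interleukin and acute phase genes 9 rose and 2 fell, 5 and 2 of them in each library, and of 23 matrix proteases and inhibitors 8 rose and 3 fell. Genes of prostaglandin synthesis belonged to no list of their own, but 2 of them were among the largest rises. PTGS2, the inducible cyclooxygenase, was at 14.6 and 119 CPM against 0.336, 0.987 and 0.685 CPM (log2 fold change 6.34 ± 0.91, adjusted p = 0.00107). PTGES, which makes prostaglandin E2 from its product (chromosome 1, 269911785 to 269924481), was at 462 and 91.7 CPM against 6.89, 8.09 and 14.8 CPM (4.87 ± 0.58, adjusted p = 0.000481). The cytokine IL6 was at 1.53 and 16.2 CPM against 0 in all normal libraries, at least 45.5-fold higher, or 7.85-fold from replicate 1 alone (adjusted p = 0.0254). The cytokine IL1A was at 8.44 and 8.09 CPM against at most 0.336 CPM (4.87 ± 0.90, adjusted p = 0.00403), and the counts behind it are few. Interferon-induced genes did not share in this, with 2 of 21 called higher and none lower. The collagenase MMP1 was at 1.92 and 119 CPM against at most 0.197 CPM, the gelatinase MMP9 at 6.14 and 45.9 CPM against at most 1.18 CPM, and the urokinase receptor PLAUR at 39.5 and 351 CPM against at most 14.4 CPM. All 3 were higher in replicate 2 than in replicate 1, and NF libraries held 79.4 and 104 CPM of MMP1. MMP15, a membrane-bound protease, fell, at 70.6 and 32.4 CPM against 235, 198 and 204 CPM (-1.91 ± 0.25, adjusted p = 0.000724).

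Lists of matrix, its receptors and growth factors are set beside all genes, of which 10.9% rose and 12.3% fell. Shares were near these for TGF-beta and BMP (18.2% and 15.2%), FGF and EGF (9.09% and 18.2%) and mesenchymal genes (10.5% and 21.1%). Collagens had 0% and 10%, integrins and laminins 46.2% and 15.4%, and the IGF axis 30% and 5%. Of 13 integrins and laminins 6 rose and 2 fell, the laminin chains LAMC3 and LAMA4 (-1.75 and -0.94 on the log2 scale). Of 33 TGF-beta and BMP genes 6 rose and 5 fell, of 22 genes of FGF, EGF and other receptor tyrosine kinase signals 2 rose and 4 fell, and of 20 genes of the IGF axis 6 rose and 1 fell. Of 19 mesenchymal regulators and matrix glycoproteins 2 rose and 4 fell, and of 10 collagens 1 fell. ITGAV and ITGA2, integrin chains for vitronectin and collagen, were at 113 and 173 and at 47.2 and 37.8 CPM, above normal maxima of 64.2 and 14.6 CPM (adjusted p = 0.00607 and 0.00292). The BMP receptors BMPR1A and BMPR2 were at 180 and 162 and at 134 and 94.4 CPM, above normal maxima of 89.9 and 40.6 CPM (adjusted p = 0.000825 and 0.00123). MET, the receptor of hepatocyte growth factor, was at 67.1 and 62 CPM against 13.5, 18.6 and 25.6 CPM (log2 fold change 1.77 ± 0.29, adjusted p = 0.00219). TGFBR1, the type I receptor of TGF-beta, was at 475 and 259 CPM against 160, 173 and 169 CPM, and TGFB1, a ligand, at 82.9 and 143 CPM against 38.5, 40.5 and 37.9 CPM (adjusted p = 0.0039 and 0.00793). IGF1R, the receptor that carries the IGF signal, was at 230 and 124 CPM against 62.9, 85.1 and 101 CPM (1.14, adjusted p = 0.00937, and 0.196 with replicate 2 alone). PAPPA, a protease that frees IGFs, was at 69.1 and 367 CPM against 24.4, 32.6 and 28.3 CPM (2.84 ± 0.53, adjusted p = 0.00405). OGN, a small proteoglycan of connective tissue, was at 66.4 and 37.8 CPM against 823, 912 and 738 CPM (-3.89 ± 0.51, adjusted p = 0.000731). SFRP2, a secreted modulator of WNT, was at 193 and 324 CPM against 1290, 1950 and 1290 CPM (-2.57 ± 0.37, adjusted p = 0.00113). LUM and OSR2, a collagen-binding proteoglycan and a mesenchymal regulator, fell by 1.5 and 2.31 on the log2 scale (adjusted p = 0.0149 and 0.00303), while FN1, fibronectin, was at 3350 and 6100 CPM against 1430, 2110 and 1970 CPM (1.36, adjusted p = 0.00407). TBX15, a regulator of trunk and limb mesenchyme, was at 28 and 18.9 CPM against 91.5, 167 and 168 CPM (-2.49 ± 0.31, adjusted p = 0.000535).

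Further genes with the largest changes belonged to no 1 tissue. CLDN6, a tight junction protein of early embryonic epithelium (chromosome 3, 39168506 to 39172631), was at 111 and 361 CPM against 9.08, 3.36 and 7.76 CPM (log2 fold change 5.06 ± 0.52, adjusted p = 0.000275). KLF5, an epithelial regulator, was at 4.6 and 27 CPM against 0 in all normal libraries, at least 81-fold higher, or 23.6-fold from replicate 1 alone (adjusted p = 0.0133). GATA4, a heart and endoderm regulator, was at 17.6 and 8.09 CPM against at most 0.228 CPM (7.29 ± 1.12, adjusted p = 0.00162). KRT4, an oesophageal keratin, had no count in either abnormal library and 273, 504 and 32.2 CPM in the normal libraries, at least 268-fold lower, or 33.4-fold from replicate 2 alone (adjusted p = 0.00415). DTL, which directs the replication licensing factor CDT1 to degradation, had no count in either and 29.8, 37.9 and 31 CPM in the normal libraries, at least 32.7-fold lower, or 4.07-fold from replicate 2 alone (adjusted p = 4.47e-05). SCARA5, PRND, CD36 and FUT1 likewise had no count in the abnormal libraries (at least 53.4, 34.1, 22.7 and 18-fold lower, or 6.65, 4.25, 2.83 and 2.24-fold from replicate 2 alone). SLC30A6, a zinc transporter at 9.98 and 24.3 CPM against 0 in all normal libraries, and CD36, a fatty acid carrier, rest on 1 of 5 and 5 of 11 annotated transcripts. NIPAL1, a magnesium transporter relative, was at 4.22 and 21.6 CPM against at most 0.592 CPM (4.92 ± 0.89, adjusted p = 0.00354).

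Glycolysis and hypoxia genes were called higher mainly through replicate 1. Of 18 hypoxia-induced genes 12 passed the test with both libraries, yet replicate 1 lay above all normal libraries in 15 and replicate 2 in 6, with 11 below. Of all genes tested, replicate 1 lay above every normal library in 38.9% and below in 42.9%, and replicate 2 in 35.9% and 49.8%, and the counts of this kind that follow stand beside these shares. P4HA1, a prolyl hydroxylase of collagen, was at 2200 and 181 CPM against 134, 124 and 134 CPM, and VEGFA at 449 and 108 CPM against 35.8, 45.2 and 67.1 CPM. Replicate 2 alone was not called for either (adjusted p = 0.216 and 0.218). BNIP3, a mitophagy receptor picked after its values were seen, was at 6120 CPM in replicate 1 and 72.8 CPM in replicate 2 against 233, 194 and 221 CPM, so the libraries lay on opposite sides. ADM, adrenomedullin, was the only hypoxia gene to hold in each library, at 144 and 51.3 CPM against 6.22, 3.36 and 4.79 CPM (log2 fold change 4.43 ± 0.54, adjusted p = 0.000535). The glycolytic LDHA was at 4790 and 637 CPM against 352, 276 and 423 CPM (2.96 ± 0.55, adjusted p = 0.00418). PGK1 was at 3140 and 591 CPM against 339, 354 and 309 CPM (2.49 ± 0.46, adjusted p = 0.0041). PKM, pyruvate kinase, was at 9590 and 3850 CPM against 1690, 1290 and 1570 CPM (2.15, adjusted p = 0.000788). LDHA and PGK1 passed the test in each library alone, although the few records that matched with their version gave -1.22 on the log2 scale for LDHA.

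Epithelial and globin genes also parted the libraries. Of 17 epidermal and keratin genes, 16 lay above all normal libraries in replicate 1 and 15 below all of them in replicate 2. In replicate 2, where 3 counts are 8.09 CPM, 6 of the 17 had no count. With such genes set at that floor, its median was -0.54 on the log2 scale. KRT8, a keratin of simple epithelia named after its values were seen, was at 4540 and 186 CPM against 318, 268 and 195 CPM. DSG2, a desmosomal cadherin, was the exception that held in each library, at 95.5 and 67.4 CPM against 9.08, 13 and 11.6 CPM (log2 fold change 2.90 ± 0.36, adjusted p = 0.000553). The embryonic globins HBE1 and HBZ were at 1340 and 872 CPM in replicate 1 and at 0 in replicate 2, where normal libraries held 9.13 to 29.6 and 5.21 to 15.5 CPM. HBB, the later beta globin, was at 19.6 and 0 CPM against 1270, 2300 and 2690 CPM (-7.17 ± 1.31, adjusted p = 0.00377), and so was low in both. SPTB, a spectrin of red cells, was at 2.3 and 5.4 CPM against 115, 73 and 54.8 CPM (-4.83, adjusted p = 0.000511). Among all genes with enough expression, those with the widest gap between the abnormal libraries included SLC17A7, CDCP1, AZIN1, PRR14L, CNTFR, RNF144B, ZSWIM4 and CDC42SE1, at 144 to 375 CPM in replicate 1 and 0 in replicate 2. In the other direction PIMREG, PRRC2A, ABR, TAOK1, FGF11, ADAMTS14 and SNRPN were at 43.2 to 124 CPM in replicate 2 and 0 in replicate 1. PRRC2A was at 172, 213 and 224 CPM in the normal libraries and AZIN1 at 228, 200 and 187 CPM. In these 2 genes only 1 abnormal library lacked counts in the matched records. Of annotated transcripts, 1 of 24 was matched for SNRPN, 1 of 6 for ABR, 1 of 9 for AZIN1 and 7 of 13 for PRR14L. The 1 annotated transcript of PRRC2A was matched.

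Proliferation, sterol and cultured-fibroblast genes ran the other way. Of 23 replication and mitosis genes, 22 lay below all normal libraries in replicate 1 and 21 above all of them in replicate 2, so that 1 passed the test in each direction when the libraries were joined. KIF2C, a mitotic motor, was at 0 and 119 CPM against 36.3, 44.2 and 41.8 CPM. Of 19 cholesterol synthesis enzymes, 18 lay below all normal libraries in replicate 1 and 14 above them in replicate 2. All 19 genes of the fibroblast culture list lay above the normal libraries in replicate 2, against 9 in replicate 1. THBS1, a matricellular protein, was at 822 and 16300 CPM against 296, 509 and 411 CPM, with 6370 and 10000 CPM in NF libraries (log2 fold change 4.4 ± 0.83, adjusted p = 0.00442). CTGF and ANXA1, a matricellular growth factor and an annexin of the same list, were called in both libraries, with ANXA1 at 550 and 496 CPM against 70.3, 74.4 and 57.3 CPM (2.96, adjusted p = 4.47e-05). CCL2, a monocyte chemokine, was at 1.92 and 405 CPM against at most 4.79 CPM, and at 475 and 583 CPM in NF libraries. ACTA2, smooth muscle actin named after its values were seen, was at 26.5 and 3450 CPM against 727, 625 and 479 CPM and at 194 and 202 CPM in NF libraries. The part that cultured or other cells play in the level of these genes was not tested.

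The effect of abnormal development was then set against the same contrast at day 30, in the interaction of day and condition. It called 401 genes, 4.05% of those tested, of which 130 had the higher effect at day 35 (1.31%) and 271 the lower (2.73%). Leaving out any 1 of the 10 clone libraries moved that count, to between 114 and 2856. Vessel and macrophage genes stood in the second group: 6 of 17 endothelial, 9 of 20 macrophage and 6 of 19 hedgehog and Notch genes had a lower effect at day 35, and none a higher one. VWF was at 111 and 133 CPM in day 30 abnormal libraries against 61.5, 65.3 and 59.8 CPM in day 30 normal libraries, the reverse of day 35 (difference of effects -5.71 on the log2 scale, adjusted p = 2.89e-05). LAPTM5 was at 138 and 189 CPM against 51.6, 43.8 and 55.4 CPM at day 30 (difference -4.74, adjusted p = 0.00201). The macrophage list had a median log2 fold change of 1.94 at day 30 and -1.69 at day 35 (-1.53 with genes lacking counts at their bound). Sarcomere and neuronal genes fell at both days: 10 of 20 sarcomere and 10 of 20 neuronal genes fell at day 30, as did 6.46% of all genes, and 4 and 3 of the 20 had a lower effect at day 35.

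**Figure D5:**
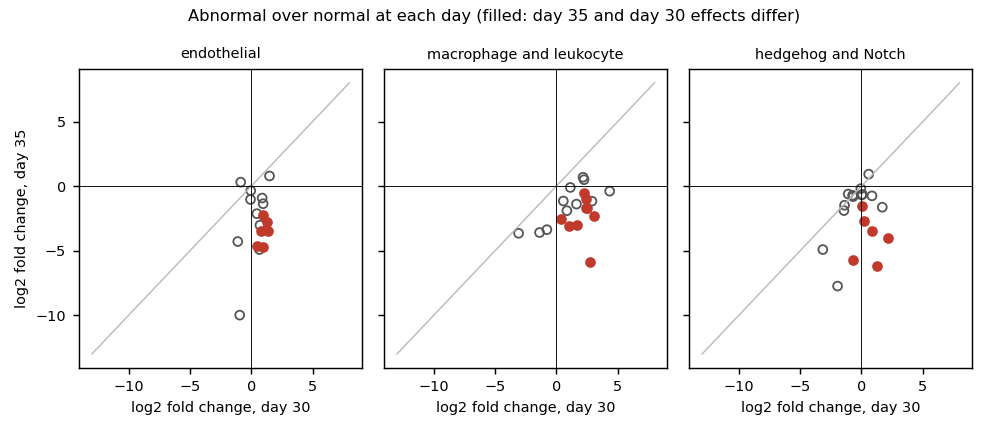
Log2 fold change of abnormal over normal clones at day 30 (x axis) and day 35 (y axis) for 17 endothelial, 20 macrophage and 19 hedgehog and Notch genes; filled points have effects that differ between the days, and the grey line marks equal effects. All filled points lie below the line, 6, 9 and 6 of them in the 3 panels, and most open points lie below it too.

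Genes chosen as the largest interactions were mostly at 0 in 1 of the groups. SOX7, an endothelial regulator, was at 24.9 and 39.3 CPM in day 30 abnormal and 14.7, 22.8 and 20.8 CPM in day 30 normal libraries, but had no count in either day 35 abnormal library against 23.9, 31.2 and 32.4 CPM in the normal ones (adjusted p = 0.018). ARHGEF15, a guanine nucleotide exchange factor of endothelium, was at 22.7 and 29.1 CPM at day 30 and at 0 in both abnormal libraries at day 35, where normal libraries held 7.7 to 24.4 CPM (adjusted p = 0.0305). GPR20, an orphan receptor, was at 18.8 and 22.7 CPM in day 30 abnormal and at most 1.98 CPM in day 30 normal libraries, and at 0 against 5.21, 5.92 and 7.31 CPM at day 35 (adjusted p = 0.0327). PAX2 and HNF4A, at 0 in both abnormal libraries at day 35, were detected in both at day 30, PAX2 at 6.55 and 21 CPM and HNF4A at 3.06 and 5.56 CPM. Among effects that were higher at day 35, ABCB1 was at 3.93 and 2.14 CPM in day 30 abnormal libraries, where day 30 normal libraries held 2.41, 3.5 and 3.51 CPM (difference 5.10, adjusted p = 0.0142). ANXA8, an epithelial annexin, was at 97.8 and 243 CPM against 9.42, 12.8 and 9.36 CPM at day 35 and at 0 and 4.7 CPM in day 30 abnormal libraries (difference 4.77, adjusted p = 0.0276). FZD9, a WNT receptor, WDR12, a ribosome assembly factor, and DSG3, a desmosomal cadherin, had 0 counts in both day 30 abnormal libraries. At day 35 FZD9 was still lower in abnormal fetuses, at 6.14 and 2.7 CPM against 39, 22.7 and 33.8 CPM. WDR12 was not called at day 35, and DSG3 was at 77.9 and 2.7 CPM against at most 2.76 CPM.

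Genes on the X chromosome, which the series' title concerns, had overlapping sums in the abnormal and normal libraries. Summed counts of 616 X-linked genes came to 4.092% and 3.937% of those of 13406 autosomal genes in the abnormal libraries and to 3.901%, 4.989% and 3.818% in the normal ones. The difference of means was -0.221 percentage points (two-sided exact permutation p = 1), in a design whose smallest p is 0.1, so that no difference could have passed the threshold. The ratio of the median levels of X-linked and autosomal genes differed by -11.6 percentage points. Of 421 X-linked genes tested singly, 21 rose (4.99%) and 68 fell (16.2%), beside 10.9% and 12.3% of all genes. Their median log2 fold change was -0.18 against 0.01 for autosomal genes, and it was -0.20 and -0.67 with replicates 1 and 2 alone. Nerve and muscle genes described above were among those that fell, namely L1CAM, SYP and SMPX. FGF13, an intracellular FGF of neurons, was another, at 22.3 and 21.6 CPM against 197, 178 and 133 CPM (-2.94 ± 0.29, adjusted p = 0.00021). EIF1AY, LOC100624149, LOC100624590 and LOC100625207, all Y-linked, were low in both abnormal libraries despite the male label. The Y-linked LOC100624648 was present throughout, and LOC110255212 and LOC100624329 overlapped between the groups. A sex difference between the groups was not tested and cannot be told apart from the abnormal label in these X-linked values. The level of XIST is not analysed here.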

How the data were processed

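14 RNA-seq libraries of fetal body tissue in 6 groups were analysed, 5 of them in the main comparison, and 8 libraries of day 6 embryos were not used. Per the file headers and the submitters' processing notes, the authors estimated expected counts and TPM per RefSeq transcript record with RSEM 1.2.4, naming build Sscrofa11.1, and deposited both. The aligner is not given in the sources used here.

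RefSeq accessions without version linked records to symbols in a table of assembly Sscrofa11.1 (25305 of 65927 records, 14389 genes, 4758 records also by version), so genes with few matched transcripts may be incomplete. Expected counts were summed per symbol and rounded. In all, 67.1% to 69.0% of each day 35 clone library's counts were matched. edgeR 4.0.16 (R 4.3.3) was used with TMM scaling, filterByExpr and the quasi-likelihood test over 6 group means, with Benjamini-Hochberg adjustment over all genes tested and a threshold of 0.05. CPM are TMM-scaled, and a gene at 0 in a whole group is given as a bound against 3 counts over that group. Alternatives used DESeq2 1.42.0 and limma 3.58.1 on log2(TPM + 1), other scalings, filters and sample sets, and each library left out. The test was checked on simulated counts. The members, gene lists and rules were chosen with earlier results of these data known. Named genes were the 15 largest rises and falls that held in each abnormal library, up to 6 called members per list, the 10 widest gaps between the abnormal libraries each way and the 5 largest interactions each way; others are said to be chosen after their values were seen or are defining members of a list. A few genes that these rules name are not reported here.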

Additional observations from a re-analysis of the deposited data

Results flagged for a closer look

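The day 35 effect of abnormal development differed from the day 30 effect in 401 genes by edgeR's quasi-likelihood test of the interaction. Values below are the day 35 log2 fold change minus the day 30 one, each with an adjusted p under 0.05, and the cause was not tested.

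Among vessel and Notch genes the difference was -5.71 for VWF, -5.08 for CLDN5, -4.05 for PECAM1, -3.19 for TEK, -7.51 for NOTCH4, -5.04 for HEYL, -1.6 for DLL1 and -4.31 for SHH. GJA4 (-10.09), PTPRB (-10.22), SOX7 (-10.79) and ARHGEF15 (-10.36) had no count in the day 35 abnormal libraries, so their size depends on the prior count and is no bound. Among macrophage genes and the CXCL12 receptor it was -4.74 for LAPTM5, -4.14 for C1QB and -2.25 for CXCR4.

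Muscle genes with a lower effect at day 35 were ACTA1 (-6.85), MYBPC1 (-6.1), MYF6 (-8.41) and APOBEC2 (-9.9). Nerve and crest genes were NEFL (-3.16), ISL1 (-3.6) and EDNRB (-4.39). The kidney and endoderm genes were PAX2 (-10.72), LHX1 (-2.52), HNF4A (-12) and APOA1 (-5.08). Of the remaining genes, DLK1 differed by -5.51, HOXD9 by -1.51, SPTB by -4.32, MMP15 by -2.03, GPR20 by -12.6, DTL by -9.29, FUT1 by -9.51, CD36 by -9.61, PRND by -9.99 and SCARA5 by -9.99. MYF6, APOBEC2, PAX2, HNF4A, GPR20, DTL, FUT1, CD36, PRND and SCARA5 also had no count in the day 35 abnormal libraries.

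The effect was higher at day 35 for some stress genes: CTH by 2.31, WARS by 1.87, NARS by 1.48, YARS by 1.39 and SLC38A2 by 1.42. So it was for HSPA9 by 1.3, HSPA5 by 1.23, DNAJC3 by 1.01 and MDM2 by 0.94. This held for 3 of 11 tRNA synthetases, 2 of 18 endoplasmic reticulum chaperones and 1 of 13 integrated stress response genes. Of all genes 1.31% had a higher effect at day 35. None of 18 NRF2 genes and none of 20 AP-1 and immediate early genes did, and 1 of those 20 had a lower effect. The effect was also higher by 5.1 for ABCB1, 4.77 for ANXA8, 2.23 for DSG2, 2.1 for BMPR2 and 1.22 for BMPR1A. It was also higher for SIX2 (3.6) and TBX15 (2.89), and for DSG3 (10.38), WDR12 (8.74) and FZD9 (7.19). The last 3 had no count in the day 30 abnormal libraries, so their size depends on the prior count and is no bound. At day 35 itself TBX15 and FZD9 were lower in abnormal fetuses (-2.49 and -2.57 on the log2 scale), and SIX2 and WDR12 were not called.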

How the results depend on the processing

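The count of 2300 genes stayed within 1.5 times under RLE scaling (2295), with all genes kept whatever their counts (2024), under a 1 CPM minimum (2246), with DESeq2 (2623) and limma on log2(TPM + 1) (2879, of which 17.3% higher against 47.2%). It was 339 with only the compared groups, 902 with only day 35 libraries and 609 with records matched by version, where fewer records were used. With a replicate block it was 1500; numbers are shared by labels only, and deviations of same-numbered libraries correlated at 0.02 and -0.03. Leaving out 1 library gave 1424 (normal replicate 1) to 3608 (abnormal replicate 2).

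The interaction's 401 genes became 937 with DESeq2, 694 with limma, 155 with the replicate block and 115 with version matching. Leaving out 1 library gave 114 (without day 30 normal replicate 2) to 2856 (without day 35 abnormal replicate 1). At day 35 it gave 1163 without abnormal replicate 2 and 153, 212 and 182 without normal replicates 1, 2 and 3. At day 30 it gave 165 and 122 without abnormal replicates 1 and 2, and 134, 114 and 151 without normal replicates 1, 2 and 3. The day 30 libraries were left out as an alternative chosen after seeing the data. A lone library was assumed to vary like the other groups.

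List medians that changed sign under another tool or matching included cardiac genes (-0.78 with version matching), pericyte and smooth muscle genes (-0.59 with limma), erythroid genes (0.27 with DESeq2, 1.36 with version matching). Over the libraries left out, 17 of 50 list medians took both signs. Ranges among them were -0.63 to 2.81 for hypoxia genes, -2.28 to 2.47 for keratins, -0.03 to 0.79 for the IGF axis, -1.69 to 0.97 for pericyte genes, -1.72 to 0.9 for placental, -4.2 to 1.01 for liver, -2.03 to 0.85 for mitotic, -1.34 to 0.49 for sterol, -1.39 to 0.22 for WNT and -0.47 to 0.27 for interferon genes. These ranges take genes without counts at their fitted values. With such genes set at the floor of 3 counts, replicate 2 alone gave a median of 0.00 for liver, placental and interferon genes. It gave 0.05 for the IGF axis, -0.54 for keratins and -0.35 for hypoxia genes. Its medians stayed at 0.85 for mitotic, 0.49 for sterol and -1.39 for WNT genes. Of single genes, LDHA reversed with version matching (-1.22). Over the libraries left out, 26 of 180 genes took both signs, of which 8 were called: -1.59 to 4.87 for BNIP3, -1.05 to 6.6 for CCL2, -8.39 to 4.45 for CDCP1, -9.22 to 6.42 for HBE1, -8.78 to 6.24 for HBZ, -0.81 to 2.63 for HOXC5, -0.5 to 4.17 for KRT8 and -6.72 to 7.09 for SLC17A7. CDCP1, HBE1, HBZ and SLC17A7 had no count in replicate 2, so their lower ends depend on the prior count and are no bound. Their normal means were 8.99, 16.1, 12 and 2.84 CPM, where 3 counts in replicate 2 are 8.09 CPM. The cause was not tested.

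Of 180 genes named, 155 were called. Without the other groups 65 lost their call, and with only day 35 libraries 24 did. With the replicate block 8 lost it. RLE scaling, no filter and the 1 CPM filter changed no call among them. The X to autosome difference was 0.312 points with TPM, -11.6 as a ratio of medians, 0.374 with version matching and -0.431 to 0.155 with 1 library left out, and no setting could reach p under 0.1 in this test. For low genes replicate 2 alone, where 3 counts are 8.09 CPM, gives weaker bounds than both libraries together (1.01 CPM).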
